A study of Mus musculus with 4 samples.

Results

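Olig1, Olig2 and Olig3 are neighbouring or related basic helix-loop-helix genes, and the data described here are the accessible chromatin regions at their loci in 4 libraries of mouse embryonic stem cells. Every peak was taken that overlapped the body of a gene on the mm10 genome or the 50 kb on each side of it, and each was assigned to the library that listed it. This gave 43 of 198860 and 46 of 222257 peaks from wild-type and knockout cells before differentiation (day 0), and 43 of 189571 and 39 of 227878 peaks from the same genotypes afterwards (day 5). Peaks that overlapped across libraries were joined, which left 57 regions at the 3 genes out of 328444 in all. The loci were chosen by gene name with earlier results of these data in view, among them a low ratio of covered base pairs, knockout to wild type, at Olig1 on day 5, so the locus values below describe these libraries and carry no test.

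The wild-type cells and the cells with a knockout of both Cdc14a and Cdc14b (Cdc14ab KO), phosphatases that remove phosphates placed by cyclin-dependent kinases, are embryonic stem cells derived from mouse blastocysts and grown over feeders, which were removed before nuclei were taken. Day 0 cells were in medium with LIF, a cytokine that holds them pluripotent, and day 5 cells had spent 5 days in N2B27 with EGF and FGF2, a medium for neural differentiation. Each of the 4 groups held 1 library, all labelled clone 3, so genotype and cell line cannot be told apart, and no difference has a replicate check. Accessibility came from ATAC-seq of single nuclei: a transposase inserts adapters into DNA that is not packed away, which marks it. A peak list has no heights, so the measures are the positions of peaks and the number of base pairs (bp) they cover, and the read depth is unknown.

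OLIG proteins are transcription factors of the developing nervous system. OLIG2 is induced by Sonic hedgehog in the ventral neural tube, where it marks the progenitors that make motor neurons and later oligodendrocytes, the myelinating cells. OLIG1, encoded beside it, acts in oligodendrocyte maturation. OLIG3 acts in the dorsal neural tube, where it helps specify early interneurons. In embryonic stem cells these genes are known as silent developmental regulators.

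Several facts of the libraries bear on what follows. Of 4 Y-linked genes (Eif2s3y, Uty, Ddx3y and Kdm5d), 3 had a promoter peak in the day 5 wild-type library and 0 had one elsewhere, so the wild-type day 5 library stands apart and there is no other library of its group to use in its place. Both wild-type libraries carry the same clone label, and whether they come from the same line was not tested. The wild-type change from day 0 to day 5 and the genotype ratios at day 5 may therefore compare different lines. Feeder nuclei left in that library were not tested for either, and values of fibroblast marker loci are given below. Another line and feeder nuclei cannot be told apart here. Cdc14a held 18, 30, 15 and 26 peaks and Cdc14b 9, 14, 12 and 13 (day 0 wild type, day 0 knockout, day 5 wild type, day 5 knockout: the order of every set of 4 values below), which shows open DNA and does not check the deletion. Of 7 stem cell markers with a listed promoter, 7, 7, 5 and 6 had a promoter peak, where 55.6, 56.9, 55.7 and 57.4% of all promoter windows had one. Pou5f1 had none at day 5 in either genotype. Of 7 neural progenitor markers, 7, 7, 7 and 6 had one, Pax6 being without it in the knockout at day 5. Of the oligodendrocyte markers with a listed promoter, Cspg4 and Mog had a promoter peak in every library and Pdgfra, the receptor of oligodendrocyte precursors, had none in any.

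All 3 Olig genes had a peak over their start in all 4 libraries, including stem cells in LIF. Olig2 (chromosome 16, 91225550 to 91228677, plus strand) was covered at its start from 593, 625, 643 and 764 bp below to 294, 293, 235 and 195 bp above. Both day 5 peaks thus reached less far into the gene than the day 0 peaks. Olig3 (chromosome 10, 19356539 to 19358604, plus strand) was covered from 680, 629, 733 and 722 bp below its start to 162, 187, 33 and 116 bp above. At Olig3 too the wild-type and knockout peaks ended closer to the start at day 5. At Olig1 (chromosome 16, 91269769 to 91271939) the low-coordinate end lay inside a peak that reached 351, 331, 406 and 404 bp below and 425, 421, 396 and 379 bp above it. For comparison, 49.9% of the 32851 promoter windows of the RefSeq table (300 bp, 250 before to 50 after a start) touched a peak in all 4 libraries and 40% were covered in full in all 4. The low-coordinate end lay in a peak in all 4 libraries at 30.2% of protein-coding genes.

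The 250 bases before the starts of Olig2 and Olig3 are shown because these stretches stayed covered in full in every library whatever happened around them. They are RefSeq sequences of GRCm38.p6 on the plus strand, chr16:91225300-91225549 and chr10:19356289-19356538, with the TATA-type motif TATAAA in capitals, as is CCAAT, which on the other strand reads ATTGG.
Olig2: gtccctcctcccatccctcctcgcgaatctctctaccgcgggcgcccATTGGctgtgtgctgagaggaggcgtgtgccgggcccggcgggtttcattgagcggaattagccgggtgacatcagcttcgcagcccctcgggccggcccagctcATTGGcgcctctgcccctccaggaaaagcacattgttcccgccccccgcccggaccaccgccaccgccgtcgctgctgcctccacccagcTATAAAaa
Olig3: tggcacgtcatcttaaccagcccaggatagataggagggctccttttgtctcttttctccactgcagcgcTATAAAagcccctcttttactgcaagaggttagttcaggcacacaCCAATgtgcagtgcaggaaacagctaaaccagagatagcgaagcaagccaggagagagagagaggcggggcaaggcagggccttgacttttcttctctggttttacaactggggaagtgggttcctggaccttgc
The open starts differ in base composition. The 300-base Olig2 window held 65% G and C and 25 CpG dinucleotides, above the median promoter (52.7% and 7), while the Olig3 window held 46% and 4, below it. TATAAA, found on either strand in 13.6% of all promoter windows, lay once in each, at position -8 from the Olig2 start and at -180 from the Olig3 start. The Sp-type motif GGGCGG occurred 2 times at Olig2 and not at Olig3 (35.7% of promoters hold it). The E-box CANNTG, the general site of basic helix-loop-helix factors, occurred once at Olig3 and not at Olig2 (72.3%). Neither window held the E-box CAGCTG, present in 16.3% of promoters, or the other E-box form CATATG, present in 3.91%. The GLI-type motif GGGTGGTC (0.807% of promoters) was in neither, nor was the SOX-type motif ACAAAG (18.7%). All were searched on both strands. A match is only a match of letters.

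Many of the regions around the genes were listed in all libraries. Of the 57 regions, 31 had a peak in all 4 libraries (54.4%, 95% exact binomial interval 40.7 to 67.6, counting error only), against 33.8% of all regions and 36% of those within 50 kb of a protein-coding gene. By gene, 12 of 25 regions at Olig1, 12 of 25 at Olig2 and 12 of 20 at Olig3 were listed in all 4. These shares of 48%, 48% and 60% compare with a median of 40.5% over the 18065 loci with at least 10 regions. Among those loci they lay at percentiles 72.6, 72.6 and 93.6. The Olig1 and Olig2 windows overlap by 58.9 kb and share 13 regions, so their values are not independent. In 1 library only lay 14 of the 57 regions (24.6%, against 32% of all regions): 3, 5, 3 and 3 by library, where 4.87, 7.96, 9.16 and 10% of all regions were of those kinds. Missing from just that library and listed in the others were 0, 1, 2 and 3 regions, where 3.14, 1.8, 8.94 and 1.7% of all regions were.

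Just inside the window edges, the outermost region was listed in all 4 libraries at each of the 4 edges. Just outside, the next region was listed in wild type at day 5 alone below Olig2, in the knockout at day 5 alone above Olig1, in all but wild type at day 5 below Olig3 and in wild type at day 5 alone above it. Of all regions, 33.8% were listed in all 4 libraries and 32% in 1 only. The edges were set by the 50 kb rule, so no boundary is read from them. With 100 kb windows, 46 of 97 regions were listed in all 4 libraries.

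**Figure D1:**
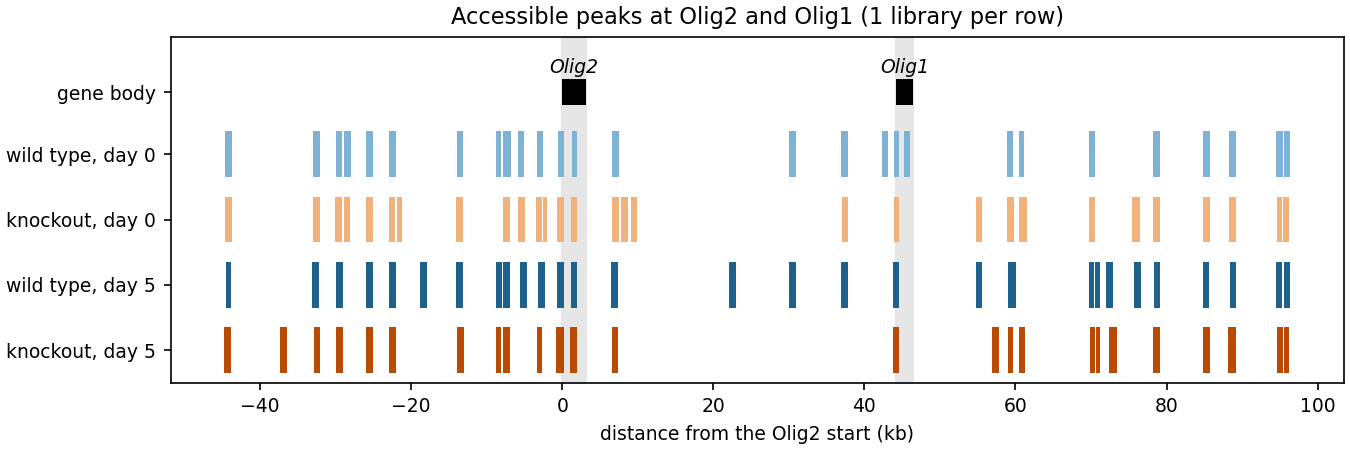
Peaks at Olig2 and Olig1 in the 4 libraries, 1 row per library, against the distance in kb from the Olig2 start. Black boxes and grey bands mark the gene bodies. All 4 rows have a peak over the low-coordinate end of each gene. The knockout row at day 5 has no peak for 36.4 kb between the genes.

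The clearest difference at Olig2 and Olig1 lay in the 41.1 kb between them. Peaks covered 3783, 3871, 3919 and 1262 bp of it in the 4 libraries. The first 3 libraries differed by little, and the knockout at day 5 was the only low one. Lying wholly in this stretch were 4, 4, 4 and 1 peaks. The longest stretch without a peak was 22.6, 27.03, 14.8 and 36.4 kb, and in the knockout at day 5 it ran from 91232947 to 91269364, ending at the Olig1 start peak.

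The 7 regions inside that interval differed between libraries. The region nearest Olig2, at 91231972 to 91233073, was listed in all 4 libraries and was the only one listed in the knockout at day 5. Wild type at both days listed 91255595 to 91256477. All libraries but the knockout at day 5 listed 91262471 to 91263418. Wild type at day 5 alone had 91247685 to 91248518 and wild type at day 0 alone had 91267845 to 91268653. Knockout cells at day 0 alone had 91233337 to 91234216 and 91234640 to 91235493. The first of these covered all 300 bp of the promoter window of Gm52261, a non-coding RNA gene on the minus strand (91228579 to 91233774) that overlaps the end of Olig2 by its own end, and no other library covered any of it.

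Against other intergenic intervals of 30 to 60 kb, the stretch between Olig2 and Olig1 had a log2 ratio (500 bp added to each value, median interval subtracted) of -1.66 for knockout against wild type at day 5 and -1.31 for day 5 against day 0 in the knockout. Both are past 2-fold, as 3.33% and 3% of the 2466 intervals were in the same direction. Of all intervals, 0.730% and 1.66% lay lower. Knockout against wild type at day 0 gave -0.04 and wild type at day 5 against day 0 gave 0.18. The interval was chosen after its values were seen. With 2000 bp added, the knockout time course was -0.85, and by number of peaks it was -1, neither past 2-fold. Fewer cells with a region open and less opening per cell cannot be told apart in peak lists made from all cells of a library.

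The Olig1 gene itself narrowed to its start peak outside wild type at day 0. Peaks covered 1307, 422, 397 and 380 bp of its body. The extra peak of wild type at day 0, 91270767 to 91271647, lay over the high-coordinate part of the gene. Within 10 kb of the gene body, 4, 3, 3 and 1 peaks covered 3377, 2358, 2524 and 784 bp, so that at day 5 the knockout kept the start peak alone.

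Olig2 held 2 peaks in its body in every library, covering 1004, 1042, 1105 and 1105 bp, values that barely differ. Within 10 kb of the body, 7, 9, 7 and 6 peaks covered 5680, 7284, 6133 and 5109 bp. A region below the Olig2 start, 91219739 to 91220940, was listed in all libraries but the knockout at day 5. In the 50 kb below Olig2 peaks covered 9890, 10438, 10188 and 9524 bp, a narrow range. The long non-coding RNA gene Gm41492 (91134476 to 91200552, minus strand) starts there, with 12, 12, 12 and 11 peaks in its body. Libraries differed in which small regions they listed: 91206778 to 91207641 appeared only on the day 5 wild type list, 91188253 to 91189067 only on the day 5 knockout list and 91203614 to 91204376 only on the day 0 knockout list.

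Above Olig1, coverage was lowest in wild type at day 0. In these 50 kb peaks covered 6584, 8648, 9239 and 9051 bp. The region 91297566 to 91298953 was listed in both day 5 libraries and in neither at day 0. The lower coverage of the knockout at day 5 was thus not spread evenly over the locus, since above Olig1 and in the Olig2 body it was within the range of the other libraries.

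**Figure D2:**
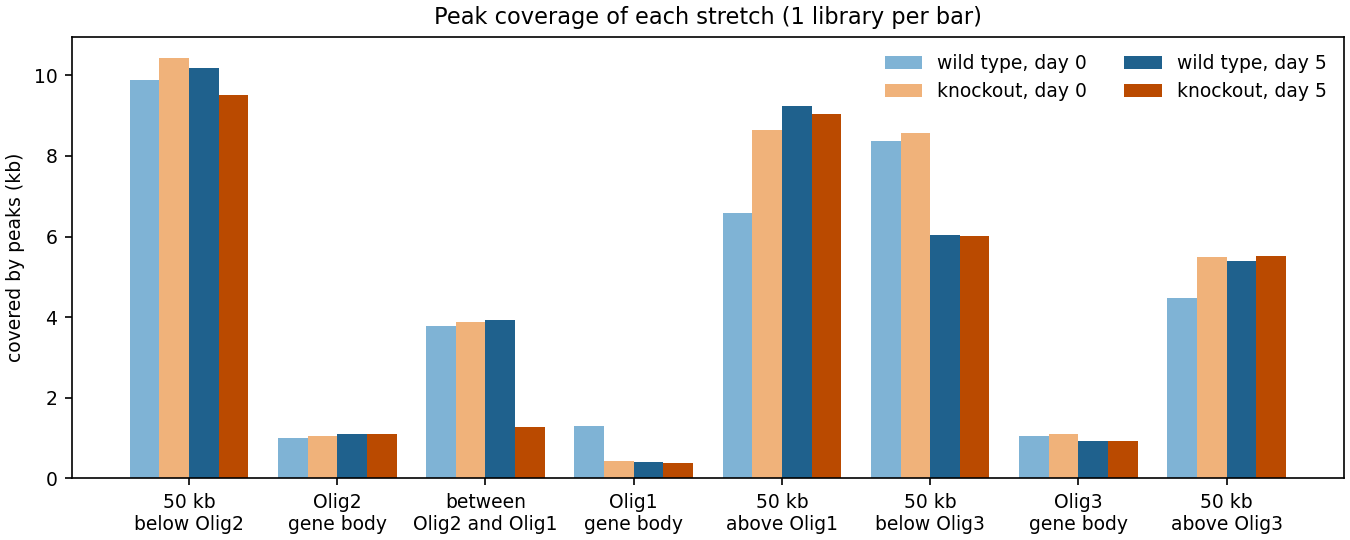
Length covered by peaks, in kb, in each stretch of the 2 loci, with 1 bar per library. Between Olig2 and Olig1 the knockout bar at day 5 stands at 1262 bp and the others between 3783 and 3919 bp.

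At Olig3 the uncentred covered length below the gene was lower at day 5 in both genotypes. In the 50 kb below the gene, peaks covered 8364 and 8578 bp at day 0, and 6042 and 6016 bp at day 5. Both day 0 libraries were higher than both day 5 libraries. The median locus in wild type also had less coverage at day 5, and after centring the whole Olig3 window gave 0.06 for the wild-type time course. The regions missing at day 5 differed in part between the genotypes. The region 19326785 to 19327590 was listed in both day 0 libraries and in neither at day 5. Wild type at day 5 alone lacked 19317987 to 19318866, and the knockout at day 5 alone lacked 19332350 to 19333342. Wild type at day 0 alone had 19354919 to 19355544, just below the start peak, and the knockout at day 0 alone had 19312644 to 19313497.

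The Olig3 body held 2 peaks in each library, which covered 1053, 1106, 919 and 935 bp, less at day 5 in both genotypes. Within 10 kb of it, 5, 4, 4 and 4 peaks covered 4158, 3638, 3430 and 3456 bp. In the 50 kb above, where peaks covered 4466, 5481, 5395 and 5510 bp, wild type at day 0 was lowest, and each of the other 3 libraries had 1 region of its own. No other annotated gene lies in the Olig3 window.

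**Figure D3:**
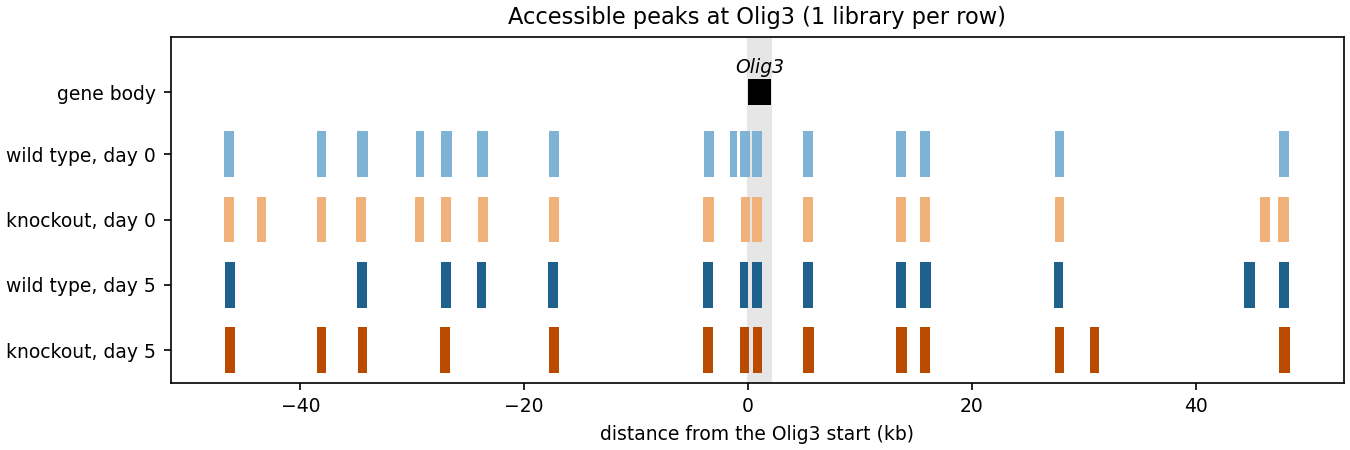
Peaks at Olig3 in the 4 libraries, 1 row per library, against the distance in kb from the Olig3 start, with the gene body in black and grey. The rows share 12 regions, and the stretch below the gene holds 10, 10, 7 and 7 peaks.

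Region by region, knockout and wild type at day 0 shared 38 of the 50 regions listed by either. The knockout alone listed 7 (14%, against 21.5% of all regions) and wild type alone 5 (10%, against 12.3%). At day 5 they shared 33 of 47, the knockout alone listed 5 (10.6%, against 30.1%) and wild type alone 9 (19.1%, against 16.2%). Of those 9, 7 lay in the Olig1 and Olig2 windows and 2 in the Olig3 window. From day 0 to day 5 the wild type gained 6 and lost 7 of 49 regions (12.2 and 14.3%, against 24 and 27.3%). The knockout gained 5 and lost 12 of 50 (10 and 24%, against 21.9 and 19.8%). The gains were below the share of all regions in each of these comparisons. These comparisons share libraries, so they are not independent of each other.

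Over whole windows, peaks covered 14742, 16662, 17129 and 13300 bp at Olig1, with the knockout lowest at day 5 and wild type highest. At Olig2 they covered 15984, 15773, 15609 and 12271 bp, with 3 libraries close together and the knockout at day 5 low. At Olig3 they covered 13883, 15165, 12356 and 12461 bp, both day 5 libraries being lower than both day 0 libraries. Per kb of window this was 144, 163, 168 and 130 bp at Olig1, 155, 153, 151 and 119 bp at Olig2, and 136, 149, 121 and 122 bp at Olig3. The median protein-coding locus had 120, 133, 101 and 128 bp per kb, so wild type at day 5 had the sparsest coverage in general while the Olig1 window in that library was at its fullest.

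Because the libraries differ in covered length, each log2 ratio (500 bp added) was centred on the median of the 20806 protein-coding loci with any coverage. Those medians were 0.11 for knockout against wild type at day 0, 0.31 at day 5, -0.22 for day 5 against day 0 in wild type and -0.03 in the knockout. At day 5 the centred ratio of knockout to wild type was -0.66 at Olig1, -0.64 at Olig2 and -0.29 at Olig3. Of all loci, 3.33, 3.595 and 15.9% lay lower. None of the 3 was past 2-fold, as 5.42% of loci were. The Olig3 value comes from the centring, since its covered lengths at day 5 were nearly equal. The Olig1 and Olig2 values come from it in part, since the same 0.31 was subtracted there. Before centring the knockout covered less at both, 13300 against 17129 bp at Olig1 and 12271 against 15609 bp at Olig2. With 10 kb on each side in place of 50 kb, Olig1 reached -1.49, from 3 peaks in wild type and 1 in the knockout. The same 10 kb window gave -0.50 at day 0.

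At day 0 the centred ratios of knockout to wild type were 0.06, -0.13 and 0.02 at Olig1, Olig2 and Olig3, and none was past 2-fold (2.98% of loci were). Those directions changed with the window size, so no direction is read from them. Day 5 against day 0 gave 0.43, 0.19 and 0.06 in wild type, with 6.82% of loci past 2-fold, and -0.29, -0.32 and -0.24 in the knockout, with 4.01% past 2-fold. In wild type only Olig1 covered more bp at day 5 before centring. A rise in wild type with a fall in the knockout, of any size after centring, was seen at all 3 loci and at 19% of all loci, although with 10 kb windows the wild-type value turned to -0.16 at Olig1 and -0.05 at Olig3, and with centring on total covered bp to -0.11 at Olig3. The Olig3 difference was 0.00 with 10 kb windows. In the 50 kb windows the difference of the time courses (-0.72, -0.51 and -0.30) was past 2-fold at 0 of the 3 and at 7.39% of loci. Day 5 against day 0 in the knockout does not use the wild-type day 5 library that stands apart. The wild-type time course and the difference of the time courses do use it.

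**Figure D4:**
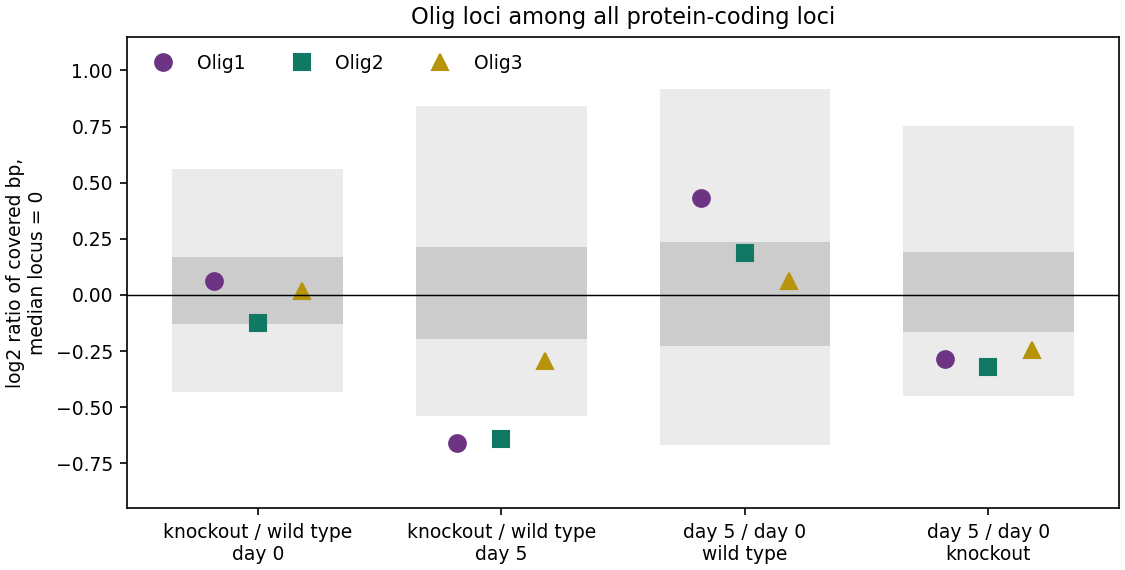
Centred log2 ratio of covered bp at Olig1, Olig2 and Olig3 in 4 comparisons, with 1 library per group and so no error bars. Dark and light bands span the middle of all loci, from quartile to quartile and from the 5th to the 95th percentile. Knockout against wild type at day 5 gives -0.66, -0.64 and -0.29, and at day 0 the values lie between -0.13 and 0.06.

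Marker lists of other cell states were read in the same comparisons. All 8 neural progenitor marker loci had a ratio below the median locus for knockout against wild type at day 5 (list median -0.37), and none was past 2-fold. At day 0 between genotypes, 6 of 8 were below it (-0.13). For day 5 against day 0, 7 of 8 lay above it in wild type (0.27) and 5 of 8 in the knockout (0.16). Summed coverage of this list was 99.8, 98.4, 103 and 101 kb in the 4 libraries. Counts against the median depend on the value subtracted, 0.31 between genotypes at day 5 and -0.22 in the wild-type time course. For knockout against wild type at day 5, 4 of 8 stem cell marker loci lay above the median and 4 below (list median 0.04), none past 2-fold. Of 8 fibroblast marker loci, listed because feeders are fibroblasts, 6 lay below the median in that comparison (list median -0.47). Prrx1 (-1.01) and Postn (-1.03) were past 2-fold, as 5.42% of all loci were. At day 0 between genotypes, 7 of 8 lay above it (0.35). For day 5 against day 0, 7 of 8 lay above it in wild type (0.51) and 1 of 8 in the knockout (-0.08). Postn (1.57) and Col3a1 (1.04) were past 2-fold in the wild-type time course, as 6.82% of all loci were. Summed coverage of the fibroblast list was 98.97, 127, 114 and 116 kb, and 2, 4, 4 and 4 of 5 had a promoter peak, Prrx1 having none in any library. The part of either marker list in the Olig values was not tested.

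The partners of the Olig genes were read from 5 lists, and some genes, such as Nkx2-2 and Neurog2, stand in 2 of them. Of all loci, 50% lie above the median by construction. Before centring, each of the 5 lists had a greater summed coverage in the knockout than in wild type at day 5. The counts below the median at day 5 thus depend on the 0.31 subtracted there. Counts above the median in the wild-type time course depend likewise on the -0.22 subtracted in that comparison. Ventral neural tube partners, the Sonic hedgehog pathway and the homeodomain factors that pattern the same progenitors, had 12 of 14 loci below the median for knockout against wild type at day 5 (list median -0.27) and 14 of 14 above it for day 5 against day 0 in wild type (0.27). In the knockout time course 12 of 14 were above it too (0.21). For knockout against wild type at day 0, 10 of 14 were below it (-0.12). Summed coverage of the ventral list was 199, 213, 231 and 245 kb in the 4 libraries. Before centring, ventral loci went both ways in the wild-type time course. Dbx1, for example, fell from 14887 to 13301 bp, and Gli3 rose. None was past 2-fold at day 5 between genotypes. Gli3, a repressor and effector of the hedgehog pathway, was past 2-fold in the wild-type time course (1.11, from 20805 to 39001 bp), against 0.28 in the knockout (33192 to 39706 bp). That is 1 of 14 loci, near the 6.82% of all loci past 2-fold in the wild-type time course. Promoter peaks stood at 10, 10, 9 and 8 of 12 ventral genes, where 55.6 to 57.4% of all promoter windows had one. Pax6 and Dbx1 lacked theirs in the knockout at day 5 alone, Nkx2-9 lacked its peak in wild type at day 5 alone, and Nkx2-2 and Nkx6-1 had none in any library.

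In the motor neuron list 6 of 8 loci were below the median at day 5 between genotypes (list median -0.05), from Lhx4 (-0.42), a motor neuron homeodomain factor, to Isl2 (0.08). Promoter peaks stood at 5, 5, 7 and 7 of 8, of which the day 0 counts are near the share of all promoter windows (55.6 and 56.9%). Neurog2, the proneural factor of motor neuron progenitors, and Slc18a3, the vesicular acetylcholine transporter, had one at day 5 in both genotypes and at day 0 in neither. In the oligodendrocyte list 10 of 16 were below (list median -0.08), the lowest being Nkx2-2 (-0.52), a homeodomain factor of ventral progenitors and oligodendrocyte precursors. Promoter peaks stood at 7 of 9 in each library.

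The dorsal interneuron list, the setting of Olig3, had 9 of 16 loci below the median (list median -0.03), from Pax3 (-0.56), a dorsal neural tube and neural crest factor, to Foxd3 (0.76), a neural crest and stem cell factor. Foxd3 had a promoter peak at day 0 in both genotypes and at day 5 in neither. Of the related basic helix-loop-helix genes 9 of 10 were below (list median -0.19), from Neurod4 (-0.81), a neuronal differentiation factor, to Bhlhe22 (0.19), and the same list was below at day 0 at 10 of 10 (list median -0.11). None of either list was past 2-fold.

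**Figure D5:**
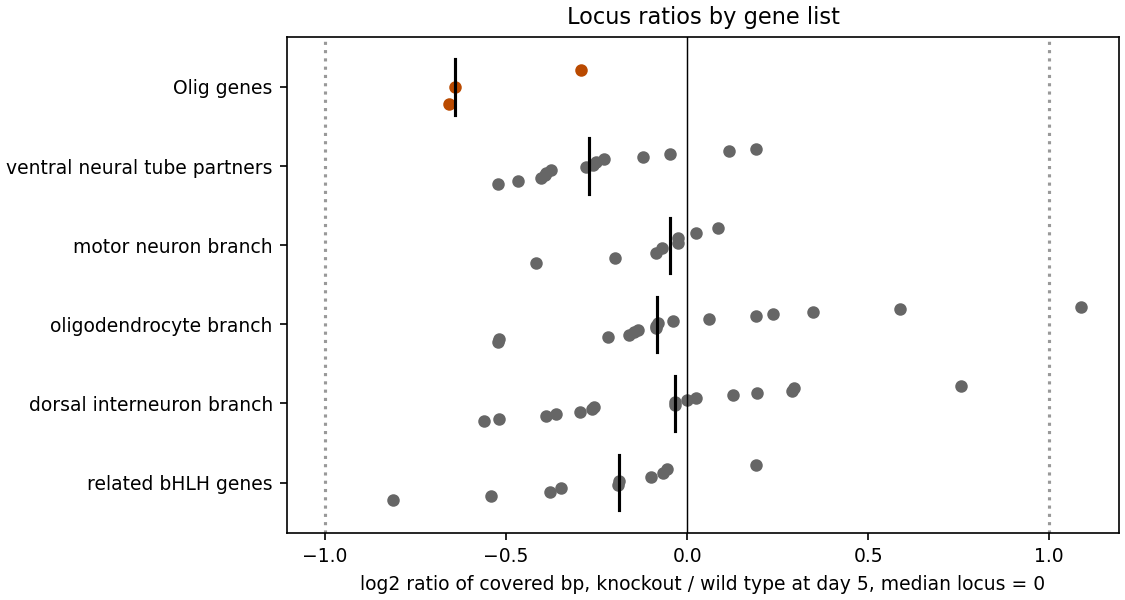
Centred log2 ratios of covered bp at the loci of the 5 lists beside the Olig genes, 1 point per locus, with a black tick at each list's median and dotted lines at 2-fold. For knockout against wild type at day 5, Olig1 (-0.66) and Olig2 (-0.64) lie below the lowest ventral locus, Nkx2-2 (-0.52), and Neurod4 (-0.81) lies lower still.

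The genes with the most similar centred coverage over the 4 libraries were Grhl1, Phf7 and 4930447A16Rik for Olig1, Xrcc3, Pnoc and Hrh3 for Olig2, and H2-Q7, Lrrc73 and Stmn4 for Olig3. The nearest, Grhl1, had 14828, 17078, 17216 and 13596 bp and a Euclidean distance to Olig1 of 0.047 on the log2 scale among 19424 candidates.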

How the data were processed

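The 4 libraries are single-nucleus multiome libraries, of which the chromatin peak lists were used. The authors called peaks separately in each library with Cell Ranger ARC 2.0.0 on the mm10 reference, per the file headers, and deposited 3 columns: chromosome and the start and end coordinates, other values such as heights being not used here. Scanpy 1.7.2 is also named in the submitters' processing notes. Starts were converted to 1-based positions.

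Peaks were assigned to a locus (gene body plus 50 kb each side, RefSeq GRCm38.p6) with at least 1 bp of overlap, and peaks of different libraries that overlapped or touched were joined into regions. Log2 ratios of covered bp used a pseudocount of 500 bp and were centred on the median locus. A locus was called past 2-fold. With 1 library per group no test was run. Scripts (Python 3.11.15, numpy 2.4.6, pandas 2.3.3, scipy 1.17.1) were tested on simulated data. Promoter windows matched 2 of the 3 genes, Olig2 and Olig3. Binomial intervals cover counting error only.

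The members and gene lists were chosen with earlier results of these data known. Named genes are the 3 Olig genes, annotated genes in their windows, the members of each list past 2-fold or else its highest and lowest, and the 3 genes most like each Olig gene. Genes named for a promoter peak, and the CCAAT motif, were chosen after their values were seen. The members of the oligodendrocyte list past 2-fold are not reported here.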

Additional observations from a re-analysis of the deposited data

Results flagged for a closer look

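The change from day 0 to day 5 ran in opposite directions in the 2 genotypes, after centring, at each Olig locus with 50 kb windows: up in wild type and down in the knockout. With 10 kb windows the wild-type change was -0.16 at Olig1 and -0.05 at Olig3, and with centring on total covered bp it was -0.11 at Olig3, so the direction turned there. The knockout change minus the wild-type change was -0.72 at Olig1, -0.51 at Olig2 and -0.30 at Olig3 on the log2 scale, the last being 0.00 with 10 kb windows. It was -1.49 in the stretch between Olig2 and Olig1. With 1 library per group the difference was not tested. Opposite directions of any size occurred at 19% of protein-coding loci, and 7.39% had a difference past 2-fold. At Olig2 and Olig3 the wild-type rise rests on the centring, since fewer bp were covered at day 5 than at day 0. The wild-type day 5 library, which alone had promoter peaks at Y-linked genes, enters all 4 values.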

How the results depend on the processing

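The locus ratios were recomputed with other windows (10 and 100 kb), pseudocounts (100 and 2000 bp), peak numbers, equal numbers of the widest peaks and other centring. The stretch between Olig2 and Olig1 had no other windows, and the share of regions in all 4 libraries was recomputed only with other windows, the widest peaks and a stricter overlap. All alternatives for the stretch between Olig2 and Olig1 and for the difference of time courses were chosen after seeing the data. Of 148 values for 20 results, 14 changed sign or came to 0. All stayed inside the wide counting intervals of the peak numbers, which says little about stability. Knockout against wild type at day 5 ranged from -1.49 to -0.46 at Olig1, -0.71 to -0.50 at Olig2, -0.54 to -0.08 at Olig3 and -1.91 to -1.12 between Olig2 and Olig1. Olig1 passed 2-fold at day 5 with 10 kb windows (-1.49) and the widest peaks (-1.08), and in the knockout time course with 10 kb (-1.14). The share of regions listed in all 4 libraries ranged from 43.6 to 54.4%. Peak lists without heights limit all of this. No paired analysis was possible because each group holds 1 library and no test was run.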

Other observations

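CTATAAAA, searched after the promoter sequences were seen, occurs in both the Olig2 and the Olig3 window and in 1.37% of all promoter windows. In the 29 Olig regions with 1 peak per library, the midpoints of the 4 peaks spanned a median of 94.5 bp, against 67 bp over 106132 such regions, and at most 230 bp.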
